A study of Caenorhabditis elegans with 2 samples.

Results

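In whole L1 larvae of Caenorhabditis elegans, 504 of 8751 BLMP-1 peaks (5.76%) had their summit inside an exon of a gene that codes for no protein. They were found by position alone: the summit lay in an exon of a noncoding RNA gene or pseudogene of the Ensembl gene models (build ce11, which is WBcel235), in no exon of a protein-coding gene, and more than 1000 bp from any tRNA, rRNA, snRNA or snoRNA gene. Of 593 summits in such exons, 21 also fell in a protein-coding exon, and 68 of the rest lay within 1000 bp of a small structural RNA gene. The member nearest to that distance limit, in K04D7.8/K04D7.10, lay 1219 bp from such a gene (rank 2267), and the nearest peak left out, in F48A9.4, lay 883 bp away (rank 3249). A slash joins the hosts of a summit that lies in exons of a pair of overlapping genes.

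The larvae, of mixed sex, were of strain OP109, genotype unc-119(ed3) III; wgIs109, in which wgIs109 is the inserted transgene that carries eGFP-tagged blmp-1. All samples share this genotype: 2 biological replicates per the labels, of 1 group, with no other condition. Chromatin came from whole animals, so a peak cannot be placed in a cell type, and all values describe the tagged protein of 1 transgenic line. The main list is the authors' optimal list, the peaks that passed their irreproducible discovery rate analysis of both replicates. Peaks were ranked by the authors' signal, rank 1 being the strongest, because the sources used here do not give the scale of that signal.

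BLMP-1 is a zinc-finger transcription factor, the worm homolog of mammalian Blimp-1 (PRDM1), and is known for its part in the timing of larval development, in the epidermis and its molts, and in the migration of the gonadal distal tip cells. Noncoding RNAs of several kinds are transcribed in the worm: microRNAs and piRNAs guide Argonaute proteins to their targets, long intergenic RNAs (lincRNAs) lie between genes, and antisense RNAs lie across from a gene on the other strand. The Ensembl biotype ncRNA gathers noncoding transcripts that Ensembl puts in no such class, most of them short and known by a clone-based name only. It also holds the host linc-171, of 1137 bp, which is named as a lincRNA and is counted here under ncRNA. In animals, short noncoding transcripts are often made at promoters and enhancers, the places where transcription factors bind.

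The windows below, the summit with 60 bases to each side on the plus strand, show the sequence around the summit at the strongest of these peaks. They come from the RefSeq genome of the same build. All were matched in both replicates, and none holds a base of a protein-coding exon. Capitals mark AAAGTGAAA, the DNA word known for BLMP-1 and its mammalian homolog, or a match to it with at most 1 mismatch, read on either strand (TTTCACTTT is its reverse). Upstream is counted from the nearest start, and the summit in T14B4.14 is also inside the span of a protein-coding gene. The first set of 6 holds the strongest peaks with such a match, in order of rank. Their positions are chrII:8751100-8751220, chrII:8749287-8749407, chrV:6352503-6352623, chrX:6515431-6515551, chrX:15310344-15310464 and chrII:6712494-6712614.
K08F8.8/K08F8.10 (upstream of atf-2): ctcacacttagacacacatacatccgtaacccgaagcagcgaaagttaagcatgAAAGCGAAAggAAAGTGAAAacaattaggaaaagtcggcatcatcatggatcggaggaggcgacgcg
K08F8.13 (upstream of atf-2): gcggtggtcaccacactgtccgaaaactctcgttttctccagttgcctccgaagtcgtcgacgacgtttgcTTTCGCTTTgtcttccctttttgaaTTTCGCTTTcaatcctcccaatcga
F13H6.20 (upstream of bcl-11): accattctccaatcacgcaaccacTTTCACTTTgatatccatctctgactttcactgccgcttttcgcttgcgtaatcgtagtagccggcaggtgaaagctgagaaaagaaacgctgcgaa
F22A3.16 (near ttr-35): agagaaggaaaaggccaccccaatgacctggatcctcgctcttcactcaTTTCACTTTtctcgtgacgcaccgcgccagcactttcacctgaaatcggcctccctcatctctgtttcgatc
Y15E3A.15 (in nhr-91): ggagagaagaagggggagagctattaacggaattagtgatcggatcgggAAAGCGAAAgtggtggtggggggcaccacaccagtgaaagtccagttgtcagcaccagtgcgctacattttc
T14B4.14 (upstream of dpy-10): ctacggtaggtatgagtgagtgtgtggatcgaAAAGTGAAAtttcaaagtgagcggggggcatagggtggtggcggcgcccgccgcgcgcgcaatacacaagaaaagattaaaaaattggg

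The second set holds the 3 strongest peaks with no match, at chrV:6354326-6354446, chrIII:4899885-4900005 and chrX:5480395-5480515. They show that a peak of the highest ranks can lack the word, by the match rule above, in the letters of this window. Such a window can still hold part of the word. That of F13H6.22 has tttcact, the beginning of TTTCACTTT, and tttcgct, the beginning of the form TTTCGCTTT.
F13H6.22 (upstream of bcl-11): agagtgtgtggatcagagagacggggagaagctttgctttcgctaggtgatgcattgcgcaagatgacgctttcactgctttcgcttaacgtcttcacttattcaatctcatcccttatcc
F26F4.14 (upstream of tag-340): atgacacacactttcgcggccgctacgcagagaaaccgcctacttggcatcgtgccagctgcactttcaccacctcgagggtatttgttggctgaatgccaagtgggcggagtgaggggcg
C25F6.26 (in dlg-1): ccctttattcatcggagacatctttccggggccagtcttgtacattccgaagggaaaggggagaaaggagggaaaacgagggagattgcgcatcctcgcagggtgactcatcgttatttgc

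By biotype, nearly all of the 504 summits lay in genes of biotype ncRNA. Exons of that class held 467 summits in 571 of its 7764 genes (7.35%). LincRNA exons held 21 summits in 15 of 194 genes (7.73%), and antisense RNA exons held 12 in 8 of 100 genes. The share of genes with a summit was thus alike in these classes, but lincRNAs are longer: their exons held 148 summits per Mb and antisense RNA exons 340, against 533 per Mb for ncRNA exons. The other classes held 2 summits each, in 261 microRNA genes, 15363 piRNA genes and 2128 pseudogenes. MicroRNA exons had 89.6 summits per Mb, on only 22.3 kb of sequence that met the position rule. That is not far from the 110 per Mb of sequence in no exon, and rests on 2 summits. Among each replicate's own 8751 strongest peaks, microRNA exons held 0 summits in replicate 1 and 3 in replicate 2. PiRNA exons had 8.44 per Mb, on 237 kb. Pseudogene exons were the longest class, with 1921 kb of sequence that met the position rule, against 876 kb for ncRNA exons, and had 1.04 summits per Mb. When each replicate's own 8751 strongest peaks were used in place of the optimal list, ncRNA exons held 399 summits in replicate 1 and 485 in replicate 2, and pseudogene exons held 3 and 2. NcRNA exons thus held far more summits than pseudogene exons in both samples.

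Summits were denser inside ncRNA exons than in sequence of no annotated exon. NcRNA exons held 533 summits per Mb, against 110 per Mb in 66062 kb of sequence that lay in no exon and met the same distance rule, a ratio of 4.86. The ratio was 4.22 in the strongest peaks of replicate 1 and 5.09 in those of replicate 2. In the 4195 kb of no-exon sequence within 500 bp of an ncRNA exon the density was 175 per Mb, between the other values, and 170 and 174 per Mb in replicates 1 and 2. The order was the same near promoters and far from them. Within 500 bp of a protein-coding start, ncRNA exons held 793 summits per Mb, against 205 per Mb in no exon, and more than 5000 bp away they held 426, against 66.3 per Mb. It also held inside the span of protein-coding genes, at 319 per Mb in ncRNA exons, against 64.7 per Mb in no exon, and between genes, at 659 against 152 per Mb. Density differed between classes of base composition, though it did not rise steadily with GC. Below 35% GC, where summits were rarest in both kinds of sequence, lay 181 of 876 kb of ncRNA exons, against 39271 of 66062 kb in no exon. From 45 to 50% GC, ncRNA exons held 784 summits per Mb, against 363 per Mb in no exon. From 50% GC upward the values were 765 and 310 per Mb. Between these 2 classes, density in ncRNA exons went from 641 to 513 per Mb in replicate 1 and from 820 to 882 in replicate 2. When the no-exon density was taken within classes of GC, of distance to a start and of position inside or outside a protein-coding gene, the ratio was 2.07 in the optimal list, 2.04 in replicate 1 and 2.06 in replicate 2. With GC classes alone it was 2.33, and with distance classes alone it was 4.83. No test was made of these ratios, since summits are not replicates.

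**Figure D1:**
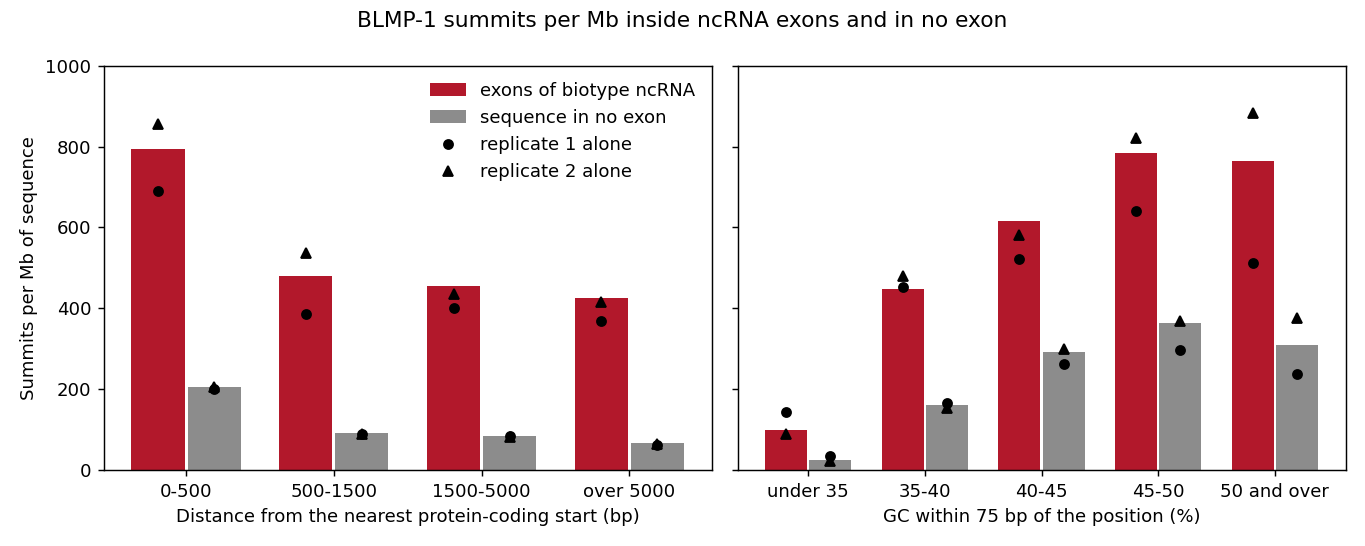
Summits per Mb of sequence (y axis) in exons of biotype ncRNA (red) and in sequence of no exon (grey), by distance from the nearest protein-coding start (left) and by GC content within 75 bp of the position (right). Bars show the optimal list, circles and triangles the strongest peaks of replicates 1 and 2 alone; red bars are above grey ones in every class, with 793 against 205 per Mb within 500 bp of a start and 99.5 against 26.3 per Mb below 35% GC.

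The summits gathered over the ncRNA genes themselves, with no preference for either end visible in these bins. Around 6586 ncRNA genes whose 5′ end met the rule, the first 100 bp from the 5′ end inward held 59.1 summits per 1000 genes, and the last 100 bp before the 3′ end held 58.8. Outside the gene, the 100 bp before the 5′ end held 34.9 and the 100 bp after the 3′ end held 30.7. Around the middle of the gene, the 100 bp before it held 54.8 and the 100 bp after it 50.7. From 400 to 500 bp before the 5′ end there were 10.9. Replicate 1 gave 50.7 at the 5′ end and 47.7 at the 3′ end, and replicate 2 gave 62.1 and 59.2. Since most of these genes are shorter than 200 bp, such bins at both ends hold much of the same sequence. Hosts of biotype ncRNA were short, with a median length of 148 bp (quartiles 134 and 212), against 140 bp (95 and 165) for all ncRNA genes. The share of ncRNA genes with a summit was 2.74% below 100 bp, 6.45% from 100 to 129 bp, 8.02% from 130 to 159 bp, 10.8% from 160 to 249 bp and 13.6% from 250 bp. Longer genes offer more sequence: per Mb of gene length, the genes from 250 bp had 252 summits, against 495 for those from 130 to 159 bp.

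**Figure D2:**
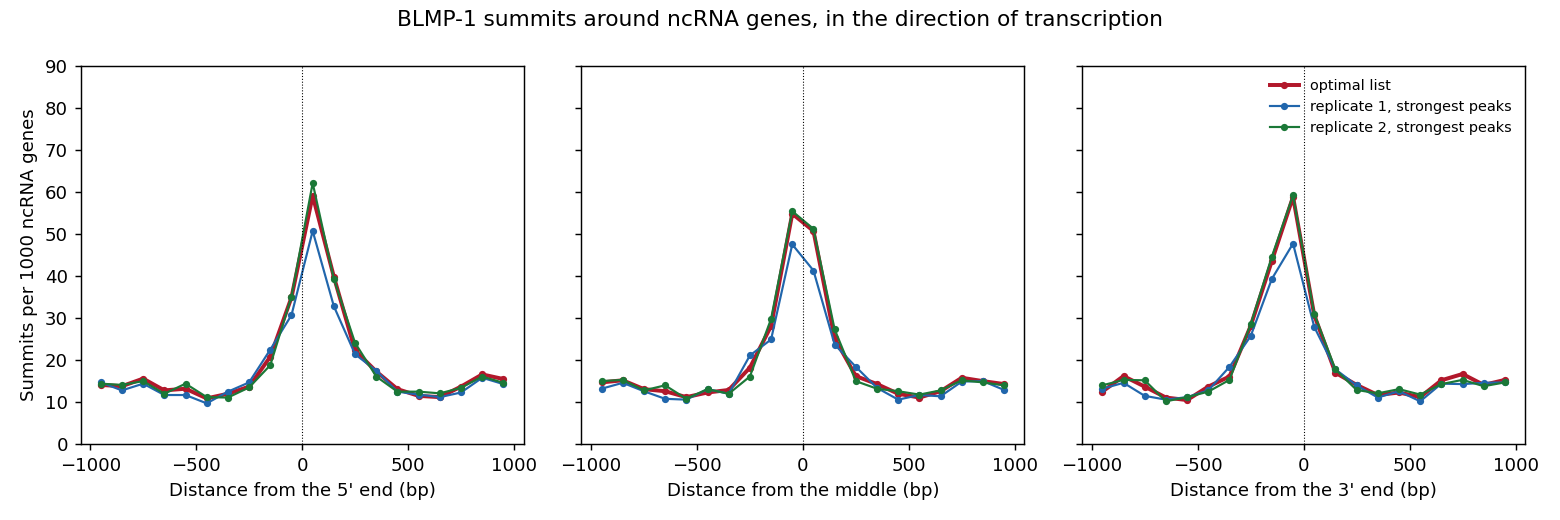
Summits per 1000 ncRNA genes (y axis) in bins of 100 bp around the 5′ end, middle and 3′ end of 6586 ncRNA genes (x axes, in the direction of transcription), for the optimal list and for the strongest peaks of each replicate. The lines peak inside the gene in all 3 panels, at 59.1 beside the 5′ end and 58.8 beside the 3′ end in the optimal list.

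Some summits lay where noncoding genes of both strands overlap. The share of noncoding exon sequence with such overlap was not measured, so no excess can be read from the count. Of the 504 members, 396 had 1 host and 108 had 2, and in each of the 108 the hosts were on opposite strands. In 27 of these pairs both genes had the same span, in 37 one lay inside the other, in 22 the genes overlapped with both starts inside the overlap, and in 22 with both starts outside it. There were 600 distinct hosts, of which 9 held more than 1 summit.

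The strongest peak of the whole optimal list was one of these. It lay in K08F8.8/K08F8.10 (WBGene00197426 and WBGene00198209, chrII:8750906-8751479), 826 bp upstream of atf-2, a bZIP transcription factor gene, with a signal of 4255. Its own rank was 18 in replicate 1 and 1 in replicate 2. A second peak upstream of atf-2, in K08F8.13 (rank 11, 2639 bp from the start), stood at rank 1351 of 27310 in replicate 1 and at rank 4 of 30000 in replicate 2. It was thus among the strongest in replicate 2 alone, whereas the first peak was among the strongest in both. Rank 3 belonged to F13H6.22 (WBGene00199421, chrV:6354181-6354573), 1639 bp upstream of bcl-11, a zinc-finger gene related to mammalian BCL11. Its ranks were 30 and 2 in replicates 1 and 2. F13H6.20, 3462 bp upstream of the same start, had rank 15 and ranks 45 and 17 in the replicates. Both bcl-11 peaks were therefore strong in both samples.

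The other 8 of the 12 strongest members lay near genes of several kinds. F22A3.16 (rank 19, ranks 126 and 11 in replicates 1 and 2) lay 3206 bp downstream of the start of ttr-35, a transthyretin-related gene. Y15E3A.15 (rank 21, ranks 53 and 19) lay in nhr-91, a nuclear hormone receptor gene, 1023 bp downstream of its start. T14B4.14 (rank 49, ranks 29 and 65) lay 327 bp upstream of the start of dpy-10, a cuticle collagen gene of body shape. It was also inside the span of a protein-coding gene. C10F3.15 (rank 84, ranks 93 and 85) lay 3128 bp upstream of fos-1, the Fos homolog known for anchor cell invasion. C25F6.26 (rank 102, ranks 134 and 95) lay in dlg-1, which encodes a Discs large scaffold of epithelial junctions. The other 3 were F26F4.14 near tag-340 (rank 38, ranks 26 and 42), T04C12.31 near T04C12.11 (rank 65, ranks 15 and 146) and F44D12.17/F44D12.18 near C47E12.13 (rank 86, ranks 103 and 83). Of the 12, K08F8.13 alone had a replicate rank beyond 1000.

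As a set, the members ranked above the other optimal peaks. Their median rank percentile, in which low values are strong peaks, was 41.2 (quartiles 17.8 and 68.6), against 50.4 (25.5 and 75.4) for the other 8247 peaks. In the own lists of replicates 1 and 2 it was 40.0 and 42.6 for summits in the same exons, against 50.6 and 50.5 for the rest. Of the members, 85 (16.9%, 95% Clopper-Pearson interval 13.7 to 20.4) were among the 1000 strongest peaks, against 11.1% of the others, and 11 (2.18%) were among the 100 strongest, against 1.08%. The median signal was 176, against 146 for the others. Intervals cover counting error only.

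Members were found in both replicates at a share close to that of the other peaks. Within 100 bp, 378 members (75%, interval 71.0 to 78.7) were matched in the 8751 strongest peaks of both replicates, against 6203 of the others (75.2%). Over all optimal peaks the share was 75.2%, so the members' share is at the background. Of the remaining members, 97 (19.2%) were matched in replicate 2 alone, 25 (4.96%) in replicate 1 alone and 4 in neither, against 16.3%, 7.43% and 1.02% of the other peaks. In the full lists, 456 members were found in replicate 1 and 495 in replicate 2. By biotype, 346 of 467 summits in ncRNA exons, 19 of 21 in lincRNA exons and 12 of 12 in antisense RNA exons were matched in both.

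**Figure D3:**
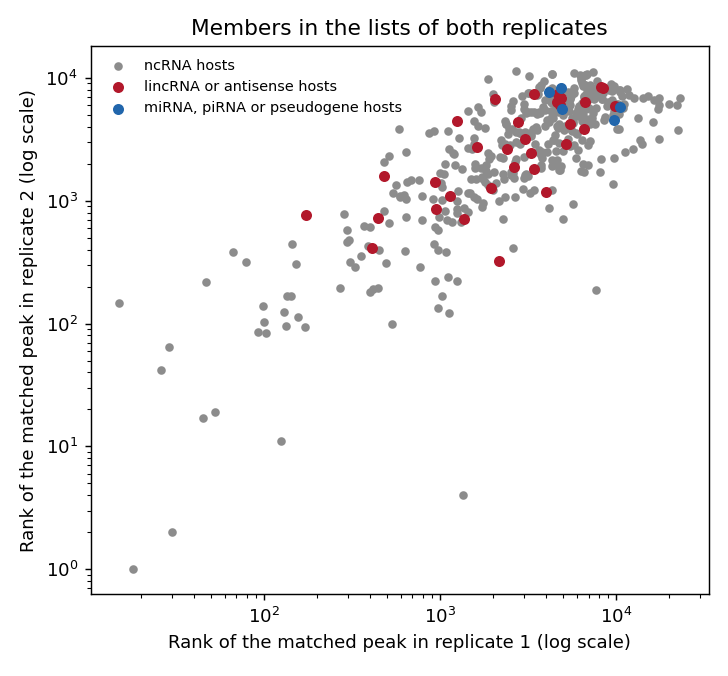
Rank of the matched peak in the list of replicate 1 (x axis) and of replicate 2 (y axis), both on log scales, for members found in both full lists, coloured by the biotype of the host. K08F8.8/K08F8.10 is at ranks 18 and 1, and members such as K08F8.13 (1351 and 4) and T27B1.7/T27B1.9 (7687 and 189) are weak in replicate 1 and strong in replicate 2; lincRNA and antisense hosts (red) begin near rank 173 of replicate 1.

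Members lay farther from protein-coding starts than the other peaks did. Within 500 bp of such a start were 159 members (31.5%, interval 27.5 to 35.8), against 41.5% of the others and 40.9% of all optimal peaks. Among peaks in no exon the share was 39.3%. The own lists of replicates 1 and 2 gave 31.8% and 32.5% for summits in these exons, against 41.5% and 42.0% for the rest. The median distance was 1176 bp (quartiles 337 and 2673, highest 12908), against 814 bp for the others. Members 1500 to 5000 bp away made up 33.9%, against 28.2% of the others, and those over 5000 bp away 9.52%, against 5.70%. Most lay upstream: 397 members (78.8%) were upstream of their nearest start, against 73.4% of the others and 78.1% of peaks in no exon. Inside the span of a protein-coding gene were 23.6% of the members, against 28.6% of peaks in no exon. The other peaks as a whole are no fair measure here, since they keep the summits in protein-coding exons. Of these members, 65 had a host on the strand opposite to the surrounding gene, 35 on the same strand, and 19 hosts or genes on both. Of the 2624 ncRNA genes in such places, 1702 were on the opposite strand, 901 on the same strand and 21 in genes of both. Between opposite and same strand alone, the members' split is near that of these genes. The third counts differ in kind, since a member can have 2 hosts on opposite strands and a gene lies on 1 strand. The members here also include hosts of other biotypes.

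Upstream hosts more often ran away from the protein-coding gene than towards it. Of the 299 upstream members with hosts on 1 strand, 193 (64.5%) had the host on the strand opposite to the nearest start, against 56.2% of all 4284 ncRNA genes in such a place. Another optimal summit lay within 1000 bp of 180 members (35.7%), against 27.3% of the others.

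The nearest starts belonged to 432 protein-coding genes, of which 384 had 1 member, 33 had 2 and 15 had 3 or more. Those with the most were chosen after their counts were seen. egl-27, a homolog of the metastasis-associated MTA proteins that acts in cell polarity and patterning, had 6 members among its 25 optimal peaks. They lay 765 to 11553 bp upstream, and the strongest, in F31E8.12, had rank 113 and ranks 99 and 139 in replicates 1 and 2. The other 5 were weaker, and 3 of the 6 had no summit within 100 bp in the list of replicate 1. T28B11.1 had 5 of 17 peaks, the strongest at rank 1209. bcl-11 had 4 of 9 peaks, at 1639, 2381, 3462 and 7701 bp upstream, with ranks 3, 207, 15 and 4579. All 4 were matched in both replicates. atf-2 is not among the genes with the most members. It had only 3 optimal peaks, and the members in K08F8.8/K08F8.10 and K08F8.13 were the stronger pair, the other having rank 402.

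**Figure D4:**
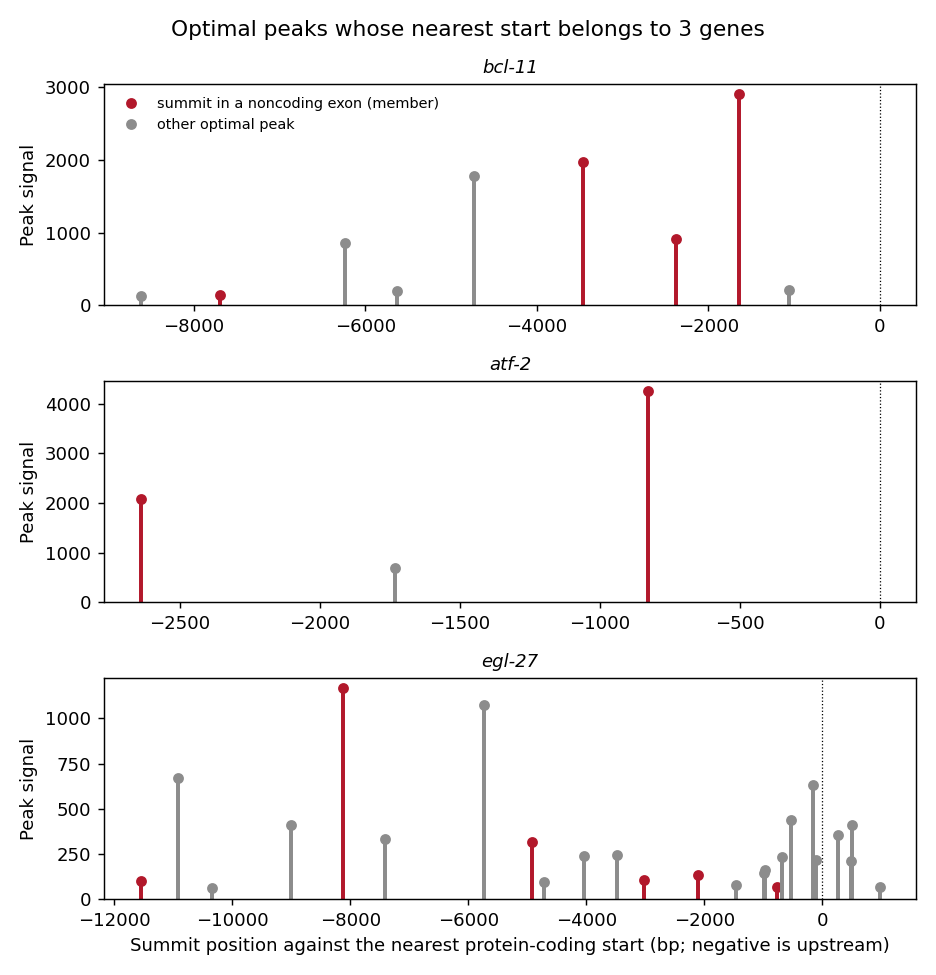
Authors' peak signal (y axis, scale not given) of every optimal peak whose nearest protein-coding start belongs to bcl-11, atf-2 or egl-27, by distance from that start (x axis, negative upstream). Red marks summits in a noncoding exon and grey the other peaks. The highest peak of each gene is red, at 1639 bp for bcl-11, 826 bp for atf-2 and 8126 bp upstream for egl-27. The genes were chosen after their values were seen. The highest peaks of bcl-11 and atf-2 have ranks 3 and 1 of the whole list, so their colour follows from that choice.

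Of the 600 hosts, the few with more than 1 summit included lincRNAs and antisense RNAs. anr-44, an antisense RNA of 3284 bp across from nhr-66, a nuclear hormone receptor gene, held 4 summits with ranks 387, 2169, 3768 and 8660, the most of any host. In replicate 1 they had ranks 412, 3441, 3437 and 8206, and in replicate 2 ranks 410, 1823, 7315 and 8438. The first was the strongest in both. linc-91, of 3257 bp, held 3 summits with ranks 1053, 1365 and 5675, and their nearest start was that of chd-7, a chromodomain helicase gene. linc-138, of 1587 bp, held 2 summits, 1038 bp upstream and 114 bp downstream of a start of klf-3, a Krüppel-like factor gene known from fat metabolism, with ranks 440 and 3599. The first was the strongest lincRNA peak, with ranks 173 and 770 in replicates 1 and 2. linc-156 and linc-120 also held 2 each, with best ranks 516 and 894. linc-133 (rank 848) lay upstream of klp-3, a kinesin gene. Among the antisense RNAs, anr-54 (rank 569) lay 1142 bp upstream of the nearest start, of vhp-1, a MAP kinase phosphatase gene. That summit was also inside the span of a protein-coding gene. F48C1.15 (rank 916) lay in let-526, a chromatin remodelling gene, and anr-36 (rank 2046) 33 bp upstream of C37C3.9.

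Genes of developmental timing and molting were among the neighbours. Of 18 heterochronic genes, which set the order of larval stages, 5 had a member nearest to their start, with 9 members in all (1.79%), against 65 of the other peaks (0.788%). nhr-25, a nuclear receptor needed for molting and epidermal fate, had 4 of the 9, all matched in both replicates. F11C1.16, 521 bp inside from its start, had rank 148 and ranks 143 and 166 in replicates 1 and 2. F11C1.11, 163 bp inside, had rank 182 and ranks 67 and 384. These were the strongest heterochronic members. kin-20, a casein kinase gene, had 2, the stronger being F46F2.10 (rank 799). It lay 455 bp upstream of the nearest start and inside the span of a protein-coding gene. lin-42, the Period homolog, had 1 in F47F6.15 (rank 1328). dre-1, whose F-box protein is known to target BLMP-1 for degradation, had 1 in K04A8.17 (rank 3282), and hbl-1, a Hunchback-like factor, had 1 in F13D11.10/F13D11.15 (rank 3340).

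Of 29 molting genes, 6 had 13 members (2.58%), against 75 of the other peaks (0.909%). nhr-25, with 11 optimal peaks, is in this list too, and without it 9 molting and 5 heterochronic members remain. The shares given for both lists include nhr-25, among members and other peaks alike. No share without it was computed, but nhr-25 held 4 of the 9 heterochronic and 4 of the 13 molting members. The rest of its 11 optimal peaks are among the 65 and 75 other peaks of these lists. Both differences therefore rest in part on this 1 gene. acn-1, which encodes an ACE-like protein, had 3 members, and they were its only 3 optimal peaks. Their ranks were 2317, 3212 and 7120. bed-3, a zinc-finger gene, had 3 of its 4 peaks here, none of them matched in both replicates. mlt-8 (W08F4.17, rank 891), myrf-1 (F59B10.7, rank 2391), which encodes a myelin regulatory factor homolog, and fbn-1 (T04A6.7, rank 4793), which encodes a fibrillin-like matrix protein, had 1 each.

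Cuticle collagens with a known body-shape phenotype had 4 members at 4 of 18 genes, against 24 of the other peaks (0.794% against 0.291%). T14B4.14 at dpy-10 had rank 49, T14B4.13 at dpy-2 rank 114, ZK1290.20 at rol-8 rank 226 and the peak at rol-6 rank 4386. The first 3 were matched in both replicates, and the last was not. T14B4.13 was the only optimal peak of dpy-2, 247 bp upstream, with ranks 130 and 125 in replicates 1 and 2. The 156 numbered collagens had 3 members (0.595%), against 78 others (0.946%), led by W08D2.12 at col-123 (rank 4174).

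For the remaining families the shares were close to those of the other peaks or rested on few peaks. The share of the body-shape collagens, with 4 members, rested on few peaks as well. Of 269 nuclear hormone receptor genes, 8 had 14 members (2.78%), against 2.75% of the others. Besides nhr-91, nhr-25 and nhr-66, nhr-46 had the strongest, at rank 225. Ribosomal protein genes had 4 members, at rps-1 (rank 1130), rpl-5 (rank 1195), rpl-39 and rps-2 (0.794%), against 41 of the other peaks (0.497%). Each was the only optimal peak of its gene, and all were matched in both replicates. Patched-related genes had 2 members (0.397%, against 0.485% of the others), and C-type lectins had 2, both at clec-1 (0.397%, against 0.170%). F-box A genes had 1 (0.198%, against 0.121%), chemoreceptors 1 (0.198%, against 0.449%) and major sperm proteins 0 (against 0.0243%).

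The members in small RNA genes were few and of middling or low rank. mir-90/K01F9.7 had rank 5090 and mir-55 rank 5785, and both lay inside protein-coding genes, 3081 and 3319 bp downstream of the nearest start. Both were matched in both replicates, at ranks 4173 and 7704 for mir-90 and 4906 and 8188 for mir-55, in replicates 1 and 2. Their mature products, from RefSeq records on the same build, are shown because they are the only microRNA hosts. Both genes are on the minus strand, and capitals mark the seed, bases 2 to 8. The products lie at chrX:13144842-13144864, chrX:13144881-13144902, chrIII:8874001-8874023 and chrIII:8874047-8874069, in the order given. The 4 seeds differ from each other. The mir-90 summit is at chrIII:8874047, a base of the last product.
mir-55, product b: tACCCGTAtaagtttctgctgag
mir-55, product a: cGGCAGAAacctatcggttata
mir-90, product b: tGATATGTtgtttgaatgcccct
mir-90, product a: cGGCTTTCaacgacgatatcaac

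None of the 10 named noncoding RNAs looked for, among them the microRNAs lin-4, let-7 and lsy-6 and the long RNAs lep-5, tts-1 and rncs-1, was a host. The piRNA genes 21ur-8457 and 21ur-14211, each of 21 bp, had ranks 5174 and 5516, and the second was not matched in both replicates. The pseudogenes Y57A10A.37 and R13.6 had ranks 4641 and 6464, and neither was matched in both. Y57A10A.37 had no summit within 100 bp in the list of replicate 1 and rank 2546 in replicate 2. With so few summits in these classes, no level can be set for any of them beyond their counts.

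The DNA word AAAGTGAAA, with at most 1 mismatch and on both strands, lay within 75 bp of 147 members (29.2%, interval 25.2 to 33.3), against 32.2% of the others and 32.0% of all optimal peaks. In windows of the same length 500 bp to each side the share was 19.3% for members and 19.3% for the others. The order of members and other peaks was not the same in the replicates: in their own lists, 33.6% of summits in these exons had the word, against 32.1% of the rest, in replicate 1, and 28.5%, against 31.5%, in replicate 2. In the members with the word, its middle lay a median of 28.0 bp from the summit, and 34 members had 2 or more matches. Exact matches were in 21 members (4.17%), against 5.49% of the others, with 0.893% in the flanks of members and 1.14% in those of the others. Of the strongest 50 members, 12 (24.0%) had an exact match, with 3.00% in their flanks. The strongest of the other peaks were not counted in this way. A match is a run of letters, not a site.

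The word AAAGCGAAA, 1 of the forms with a mismatch, was counted after it had been seen in the windows of the strongest members. It lay within 75 bp of 13 members (2.58%), against 1.44% of the others, with 0.694% in the flanks of members and 0.534% in those of the others. The members in which it was first seen are among the 13, so this difference follows in part from the choice of word. The strongest 50 members held 5 of the 13. The shorter AAAGCGA, which every AAAGCGAAA contains, was in 38 members (7.54%), against 4.62% of the others, and AAAGTGA in 64 members (12.7%), against 16.1%. The windows of members were richer in GC, with a median of 45.0% within 75 bp of the summit, against 40.4% for the others. At ncRNA genes with a member it was 45.7%, against 43.0% at ncRNA genes without one. The part of base composition in the counts of words was not tested.

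By chromosome, X held the most members, 149 (29.6%, interval 25.6 to 33.8), against 19.9% of the other peaks. In the own lists of replicates 1 and 2, X held 29.5% and 29.8% of the summits in these exons, against 20.4% and 19.9% of the rest. X also held the most ncRNA exon sequence, 305 kb of 876 kb. Per Mb of ncRNA exon, X had 473 summits, fewer than chromosomes II (609), III (639), IV (583) and V (560), and more than chromosome I (399). In replicate 1, X had 414 per Mb, the lowest of the chromosomes, and in replicate 2 it had 492, above chromosome I at 452. X thus had a high share of the members and of the ncRNA exon sequence, but not a high density of summits in that sequence.

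**Figure D5:**
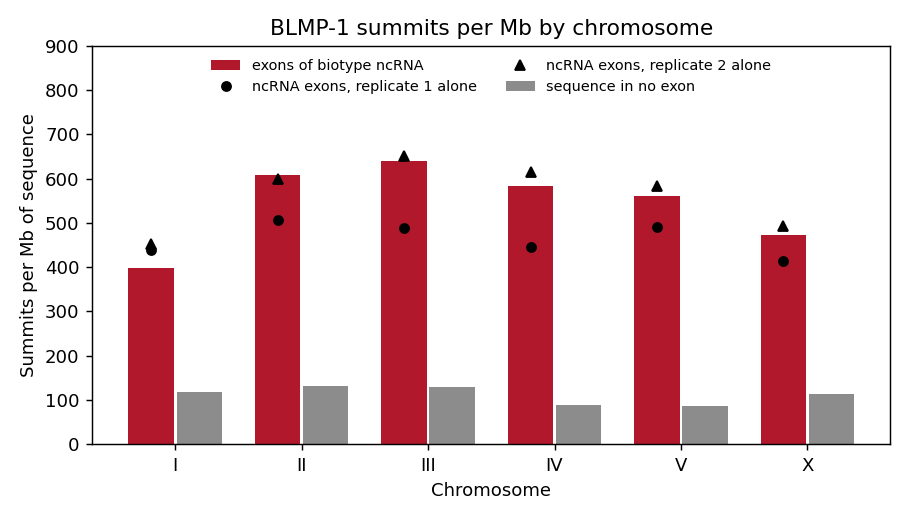
Summits per Mb of sequence (y axis) by chromosome, in exons of biotype ncRNA (red) and in sequence of no exon (grey), in the optimal list, with the strongest peaks of replicates 1 and 2 in ncRNA exons as circles and triangles. NcRNA exons are above the no-exon level on every chromosome, with 473 against 114 per Mb on X.

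Within 20 kb of blmp-1 and of unc-119, the genes of the transgene and of the strain's mutation, there was no member. Optimal peaks of any kind numbered 0 near blmp-1 and 3 near unc-119.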

How the data were processed

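ChIP-seq peaks of eGFP-tagged BLMP-1 in whole L1 larvae were read from the deposited lists on ce11: the optimal list and the lists of replicates 1 and 2 (27310 and 30000 peaks). Peaks of each replicate, and of both together, were called against a control, per the listings beside the deposited lists, and an irreproducible discovery rate analysis gave the optimal list. The signal is the authors' deposited value and was used only to rank and describe peaks within a list. Summits are start plus offset, 1-based. Extraction, aligner, caller, versions, threshold and signal scale: not given in the sources used here. Depth is unknown. The ce10 and pooled lists were not used.

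Gene models were of Ensembl release 115; host symbols, microRNA products and sequence came from RefSeq on WBcel235. Peaks matched within 100 bp, among the 8751 strongest of each replicate. The nearest start is that of any protein-coding transcript. With 1 group and 2 samples no test was made; shares have 95% Clopper-Pearson intervals, and the main shares, medians and densities were recomputed in the own list of each replicate; strand, length, gene list, host pair and word counts were not. Densities were taken over sequence in no protein-coding exon and over 1000 bp from small structural RNA genes.

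Named are the 12 strongest members, the 3 strongest per biotype, gene list and prefix (mir, linc, anr), and the 5 hosts with most summits; other members of the lists, and genes with many members, were named after their values were seen. Members and lists were chosen with earlier results of these data known. Scripts were tested on simulated data. Tools were Python 3.11.15, numpy 2.4.6, scipy 1.17.1 and matplotlib 3.10.9.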

Additional observations from a re-analysis of the deposited data

How the results depend on the processing

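The number of members and hosts, the rank percentile, and the shares matched in both replicates, near a start, with the motif and with a host of biotype ncRNA were recomputed under other settings; gene lists, strands, chromosomes, profiles and words were not. With the stronger 4375 peaks there were 287 members and 344 hosts, with 92.3% matched in both replicates, 34.5% within 500 bp of a start and 33.4% with the motif. Matching within 50 bp gave 67.3%, within 200 bp 80.6% and anywhere in each list 88.7%. Among members matched in both replicates the median rank percentile was 31.0, 33.1% lay within 500 bp of a start, 33.3% had the motif and 91.5% had a host of biotype ncRNA. With protein-coding exons kept, 33.3% lay within 500 bp of a start. With any base of an exon within 50 bp of the summit, 30.8% did, and 91.6% had a host of biotype ncRNA. Starts within 250 bp gave 18.5%, within 1000 bp 45.2%, and only the outermost start of each gene 27.6%. The motif share was 4.17% for exact matches, 23.6% within 50 bp, 33.9% within 100 bp and 19.3% in the flanks. With either replicate left out, the ranges were 440 to 526 members, 512 to 628 hosts, percentiles of 40.0 to 42.6, and shares of 31.8% to 32.5% within 500 bp of a start, 28.5% to 33.6% with the motif and 90.7% to 92.2% with a host of biotype ncRNA, against 92.7% in the optimal list. Matching needs both replicates, so it has no such value. The other planned settings, among them distances of 500 and 2000 bp to small structural RNA genes, kept the matched share within its counting interval, moved the other shares and the percentile by less than the spread between replicates, and gave 378 to 711 members and 450 to 863 hosts.

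The ratio of summit density in ncRNA exons to sequence in no exon, added after the data were seen, was 4.86 as reported, 2.33 within GC classes, 4.83 within distance classes and 2.07 within classes of GC, distance and gene span. No paired analysis was possible because there is 1 group. The depth of the libraries is unknown, so no floor can be set for regions without a peak. The control libraries were not analysed here.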
